A study of Mus musculus with 8 samples.

Results

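Laminins, integrins and matrix glycoproteins were followed in brown adipose tissue (BAT) as 57 protein-coding genes of the 44674 genes in the table. They were chosen by symbol alone, through the GENCODE annotation of the mouse genome: the laminin chains, all integrin chains but *Itgax*, the genes with integrin-like symbols, the fibrillins, the fibulins, fibronectin, the thrombospondins, tenascin-C, tenascin-X, periostin and the SPARC proteins. Of these, 8 encode integrin chains of leukocytes and are described apart from the other 49.

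BAT was taken from 4 control mice and 4 Ox1RΔSERT mice at the end of a hyperinsulinemic-euglycemic clamp, in which insulin is infused through a catheter while glucose is given to keep blood glucose steady. Ox1RΔSERT mice carried Ox1R fl/fl with Sert-Cre tg/wt, and control mice carried Ox1R fl/fl with Sert-Cre wt/wt, so that both groups had the floxed alleles of the orexin receptor. All 8 mice were male and received a high-fat diet (HFD) from 4 to 18 weeks of age. Sert-Cre acts in cells that express the serotonin transporter, in the brain mainly neurons of the raphe nuclei, with ectopic activity in parts of the cortex and thalamus. The paper mapped this activity in the brain and reported no test of it in BAT. The comparison asks how matrix and adhesion transcripts of the target tissue differ between these genotypes in obese, insulin-infused mice, with 1 library from each mouse.

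Around each brown adipocyte and each capillary lies a basement membrane, a sheet whose scaffold is built by laminins. A laminin is a trimer of an alpha, a beta and a gamma chain, and cells hold on to it through integrins and other receptors. Between the basement membranes lie fibronectin and the elastic microfibrils made of fibrillins and fibulins. Tenascins, thrombospondins, periostin and SPARC belong to the matricellular proteins, which modify contacts between cells and matrix and are best known from tissue that is growing, injured or inflamed. Integrins are pairs of an alpha and a beta chain, and some chains are made almost only by leukocytes.

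The promoter sequences of 38 of the 57 members were listed by RefSeq (GRCm38.p6), and 4 of them are shown as examples of the directions seen here. They are those of *Lamb3*, the laminin chain that was lower at an unadjusted p under 0.05 in edgeR, and of *Tnc* and *Postn*, matrix glycoproteins that were higher at that threshold. The last is that of *Itgam*, a leukocyte integrin. Each is given 5′ to 3′ on the strand of its gene and holds the 250 bases before the annotated start that is nearest to the start of the gene in GENCODE. Capitals mark matches to the motifs named in the next paragraph.
Lamb3, chr1:193301744-193301993, plus strand: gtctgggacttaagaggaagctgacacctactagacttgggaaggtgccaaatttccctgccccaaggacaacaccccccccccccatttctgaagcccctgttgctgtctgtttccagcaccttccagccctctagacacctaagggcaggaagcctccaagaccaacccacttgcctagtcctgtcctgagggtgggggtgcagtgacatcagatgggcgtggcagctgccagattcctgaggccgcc
Tnc, chr4:64047016-64047265, minus strand: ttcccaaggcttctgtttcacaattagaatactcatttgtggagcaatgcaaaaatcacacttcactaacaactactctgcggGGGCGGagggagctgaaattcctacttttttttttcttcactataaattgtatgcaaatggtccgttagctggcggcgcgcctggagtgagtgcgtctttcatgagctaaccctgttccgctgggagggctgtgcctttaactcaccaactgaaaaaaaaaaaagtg
Postn, chr3:54360857-54361106, plus strand: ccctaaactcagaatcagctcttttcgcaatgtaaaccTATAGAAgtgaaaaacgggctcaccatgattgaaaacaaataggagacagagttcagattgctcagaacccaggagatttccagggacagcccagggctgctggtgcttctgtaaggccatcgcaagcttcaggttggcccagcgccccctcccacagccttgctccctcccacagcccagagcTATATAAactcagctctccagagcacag
Itgam, chr7:128062390-128062639, plus strand: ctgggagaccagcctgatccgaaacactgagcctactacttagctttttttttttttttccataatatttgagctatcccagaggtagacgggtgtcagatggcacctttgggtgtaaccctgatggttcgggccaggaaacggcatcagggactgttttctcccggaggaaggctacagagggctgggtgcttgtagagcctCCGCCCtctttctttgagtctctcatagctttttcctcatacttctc

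Motifs were searched on both strands of these 250 bases, and none of the matches shown overlaps another. The TATA box (TATANAA) was found in 2 of the 38 members, *Postn* and a second start of *Tnc*, which is 5.26%, against 12.1% of the 27025 genes in the promoter table. In *Postn* it begins 28 and 212 bases before the start. The GC box (GGGCGG) was found in 16 members (42.1%, against 35.4% of all genes), among them *Tnc*, 167 bases before the start, and *Itgam*, 47 bases before the start on the opposite strand. The CCAAT box (CCAAT) was found in 8 members (21.1%, against 37.5%), the AP-1 site (TGANTCA) in 1 member, *Tnxb* (2.63%, against 7.82%), and the PU.1 site (GAGGAAGT) in 4 members, *Itga11*, *Itgav*, *Itgb2l* and *Itgb6* (10.5%, against 2.79%). The window of *Lamb3* holds none of these letters, and it lies 94295 bases downstream of the start of the gene in GENCODE.

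Total counts were between 35852708 and 50063339 per mouse, and 51 of the 57 members passed the filter on low counts. The 6 that did not were *Lama1*, *Itga2*, *Itgb6*, *Itgb8*, *Itgb1bp2* and *Itgb2l*. Normalized values are counts scaled to library size as CPM after TMM scaling, and a floor of 3 counts, which covers counting error only, corresponded to 0.0592 to 0.0951. Ox1RΔSERT mice 11601 and 11708 stood apart from the other 6 mice, and the main results that rest on them are given with and without them. They were singled out from values of these data, not from a label. Counts of members in which they are highest, and fits without them, are therefore descriptions. In mice 11601 and 11708 the members took 0.625% and 0.433% of all counts, against 0.196% and 0.254% in Ox1RΔSERT mice 11243 and 11613 and 0.168% to 0.211% in control mice.

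In edgeR's quasi-likelihood test, 0 members were called at an adjusted p under 0.05, as were 0% of all 14489 genes tested. The adjusted p of the members was between 0.316 and 0.994. At an unadjusted p under 0.05, 20 of the 51 tested members (39.2%) differed between the groups, against 15.2% of all tested genes. Of these, 19 were higher in Ox1RΔSERT mice, where the share over all genes was 10.2%, and *Lamb3* was lower, where it was 4.96%. Over all genes at an unadjusted p under 0.05, 67.3% were higher, and with scaling by library size alone, which moved the median log2 fold change of all genes to 0.22, 97.2% were. DESeq2, on the same counts, called 8 members, with 1.75% called over all its genes: *Tnc*, *Fbn2*, *Thbs1*, *Thbs3*, *Itgal*, *Itgam* and *Itgb7* were higher and *Lamb3* was lower. These calls depended on which mice were included: DESeq2 called 0 members when mouse 11601, 11708 or 11560 was left out. It called 2 when control mouse 11563 was left out and 4 when control mouse 10684 was, against 15 when mouse 11613 and 20 when mouse 11243 was left out. The calls over all genes moved too, from 265 with all 8 mice to 17 without 11601 or 11560, 19 without 11708 and 49 without 11563. They were 373 without 10684, 936 without 11613 and 1516 without 11243.

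**Figure D1:**
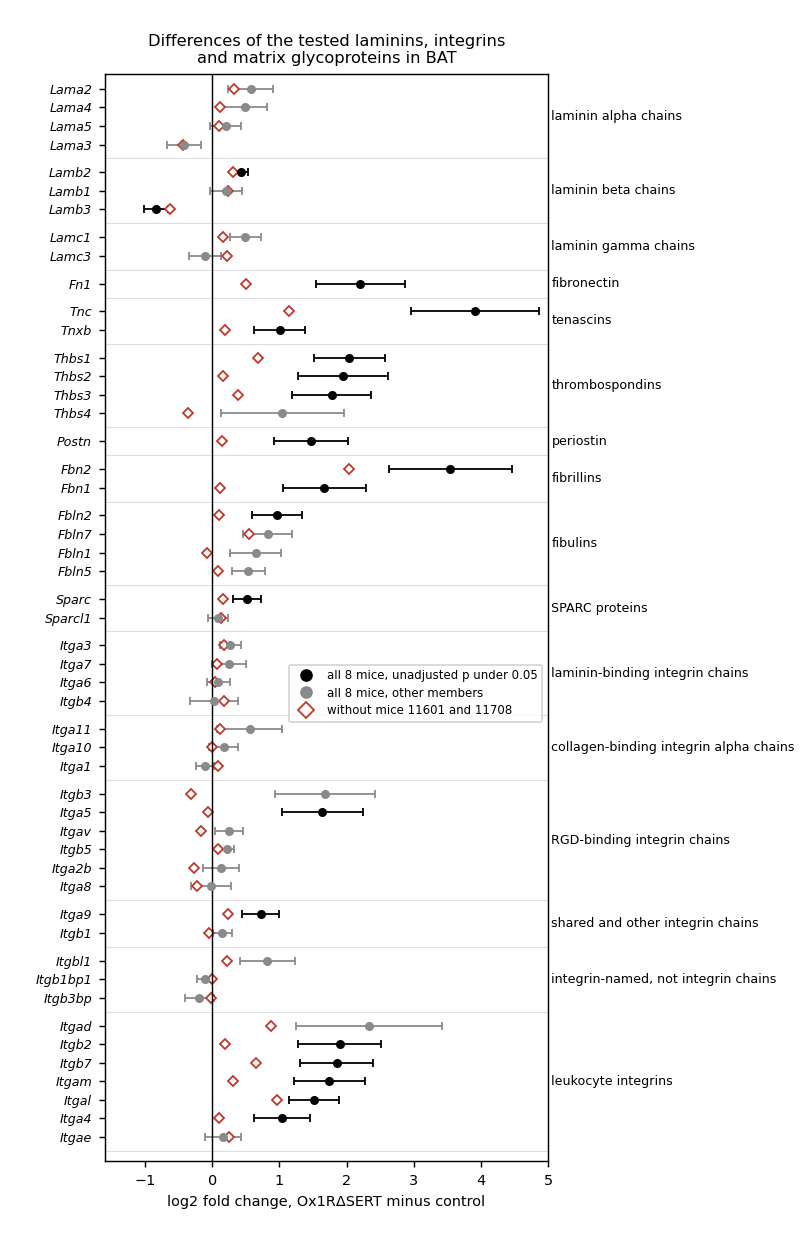
Log2 fold change (Ox1RΔSERT minus control) of 50 of the 51 tested members, ordered by role, with bars of 1 standard error from edgeR and open diamonds for the same value without mice 11601 and 11708. The glycoproteins and the leukocyte integrins lie farthest to the right with all 8 mice, *Lamb3* lies farthest to the left, and the diamonds of the leukocyte integrins have a median of 0.30.

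The 44 tested members other than leukocyte integrins had a median log2 fold change of 0.49, and the 7 tested leukocyte integrins one of 1.75, against 0.00 over all tested genes. The difference was uneven over the members. The 16 matrix glycoproteins had a median of 1.26, with 11 higher at an unadjusted p under 0.05 and 0 lower. For the 10 tested laminin chains the median was 0.27, with 1 higher and 1 lower, and for the 15 tested integrin chains outside the leukocyte group it was 0.22, with 2 higher and 0 lower. Over all tested genes, 10.2% were higher and 4.96% lower at that threshold. In both directions together, the laminin chains (20%) and these integrin chains (13.3%) were near the 15.2% of all tested genes. In 28 of the 51 tested members (54.9%), mice 11601 and 11708 had the 2 highest values of all 8 mice, against 20.1% of all tested genes. These 2 mice were picked from the same data, so this count describes them and is no test.

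Without mice 11601 and 11708, 6 members remained at an unadjusted p under 0.05, against 2.85% of all genes tested in these 6 mice. *Lamb2*, *Tnc*, *Thbs1*, *Fbn2* and *Itgal* were higher, where the share over all genes was 1.66%, and *Lamb3* was lower, where it was 1.2%. The medians were then 0.12 for the members other than leukocyte integrins and 0.30 for the leukocyte integrins. In the normalized values of all 8 mice, the 4 Ox1RΔSERT mice did not overlap the 4 control mice in 5 tested members, against 5.5% of all genes. *Lamb2*, *Thbs1*, *Fbn2* and *Itgal* were higher in each Ox1RΔSERT mouse, where the share over all genes was 2.69%, and *Lamb3* was lower in each, where it was 2.81%. In TPM, the unit normalized for transcript length, 5 members had no overlap, against 5.76% of all genes: *Thbs1*, *Fbn2* and *Itgal* as before, and *Itgam* and *Sparcl1*, which overlapped in normalized values. TPM values also lack TMM scaling, and on log2(TPM + 0.1) the median log2 fold change of all genes was 0.23.

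**Figure D2:**
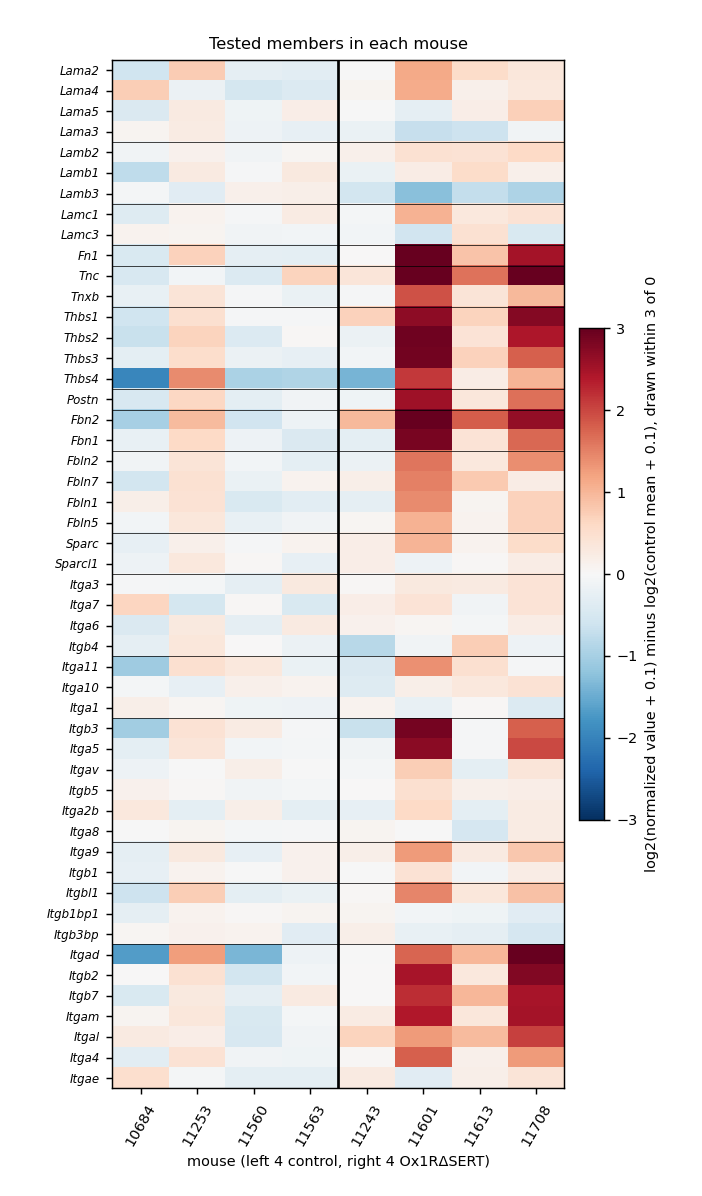
The values of 50 of the 51 tested members in each mouse, as log2(normalized value + 0.1) minus log2(control mean + 0.1), with colours limited to 3 on each side of 0 and the roles divided by lines. The columns of mice 11601 and 11708 are the reddest in the glycoproteins and leukocyte integrins, while *Lamb3* is blue in all 4 Ox1RΔSERT mice.

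Laminin beta chains held the clearest split among the laminins, with *Lamb3* lower and *Lamb2* higher in every Ox1RΔSERT mouse. *Lamb3* (ENSMUSG00000026639), on chromosome 1 of GRCm38 from 193207699 to 193343878, encodes the beta chain of the laminin that anchors epithelia. Normalized values of *Lamb3* were 17.3, 14.1, 20.0 and 20.3 in control mice 10684, 11253, 11560 and 11563. In Ox1RΔSERT mice 11243, 11601, 11613 and 11708 they were 12.2, 7.44, 10.96 and 9.40. All 4 Ox1RΔSERT mice lay below all 4 control mice, at 9.99 ± 2.04 against 17.9 ± 2.88 (SD, n = 4 in each group). The log2 fold change was -0.84 with a standard error of 0.18 (unadjusted p of 0.00116 in edgeR). DESeq2 gave *Lamb3* an adjusted p of 0.0117. Over all tools and settings run, edgeR and limma included, the adjusted p of *Lamb3* lay between 0.000565 and 0.996. The upper end of 0.996 was the same for every member whose range is given below, so it is not particular to a gene.

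The value of *Lamb3* depended on the unit. In TPM, which divides the estimated count by the length of the transcripts to which Salmon assigned the reads, *Lamb3* was 9.43, 4.57, 5.94 and 5.21 in the control mice, against 4.21, 2.56, 6.33 and 3.61 in the Ox1RΔSERT mice. The groups overlapped in TPM, since mouse 11613 lay above 3 of the 4 control mice. On log2(TPM + 0.1), the log2 fold change of *Lamb3* was -0.59, with an unadjusted p of 0.0896 in limma. TPM values also lack TMM scaling. On this scale the median log2 fold change of all genes was 0.23, and 97.0% of those at an unadjusted p under 0.05 in limma were higher. The part of this shift in the value of *Lamb3* was not tested. The ratio of count to TPM, which follows the average transcript length, varied 2.20-fold between mice for *Lamb3*, and by more than 1.5-fold for 10 of the 51 tested members (19.6%), against 8.95% of all tested genes. GENCODE lists 4 protein-coding transcripts of *Lamb3*, with spliced lengths of 1029, 4013, 4056 and 4867 bases, and the shortest and the longest of them start farther upstream than the other 2. Whether the mice differed in the transcripts they made or in how reads were shared out was not tested.

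*Lamb2* (ENSMUSG00000052911, chromosome 9, 108479736 to 108490530) encodes the beta chain of laminins at vessels and neuromuscular junctions. It was at 40.7, 48.3, 40.8 and 45.9 in the control mice, against 49.1, 60.2, 59.0 and 67.0 in the Ox1RΔSERT mice. Every Ox1RΔSERT mouse lay above every control mouse, but mouse 11243 by less than 1 unit. With a log2 fold change of 0.42 (standard error 0.11) and an unadjusted p of 0.00439 in edgeR, the difference was small, and it was 0.31 without mice 11601 and 11708. In TPM, *Lamb2* overlapped between the groups, with 10.9 in mouse 11243 against 9.89 to 11.9 in the control mice. *Lamb1*, the most abundant beta chain, had values of 88.1 to 183 in control mice and 130 to 219 in Ox1RΔSERT mice and a log2 fold change of 0.21.

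The chains were unequal in level. On the TPM scale, *Lamb1* made up 42.1% to 62.5% of the summed beta chains, *Lamc1* 90.1% to 92.3% of the gamma chains and *Lama4*, the alpha chain of vessels and adipocytes, 49.5% to 80.5% of the alpha chains. *Lamb3* made up 11.7% to 28.3% of the beta chains in control mice and 4.45% to 13.2% in Ox1RΔSERT mice, so that the ranges overlapped. *Lama3*, whose product joins that of *Lamb3* in the epithelial laminin, had a log2 fold change of -0.42 and an unadjusted p of 0.13 in edgeR. Its normalized values were 0.736 to 1.08 in control mice and 0.513 to 0.823 in Ox1RΔSERT mice. Of the 6 epithelial markers (*Epcam* and keratins), 3 were at or under the floor in all 8 mice, and the summed level was 0 to 0.157 in control mice and 0.0655 to 1.85 in Ox1RΔSERT mice, with the highest value in mouse 11708.

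The main chains of the other families were higher mainly in mouse 11601. *Lamc1*, the gamma chain of most laminins, was at 106, 152, 137 and 165 in the control mice, against 135, 288, 175 and 189 in the Ox1RΔSERT mice. Its groups overlapped through mouse 11243, and the log2 fold change of 0.49 had an unadjusted p of 0.0644 in edgeR. *Lama4* was at 76.0, 39.9, 31.2 and 34.3 in the control mice, against 48.1, 98.2, 50.3 and 56.4 in the Ox1RΔSERT mice, where control mouse 10684 was the second highest of all. *Lama2*, *Lama5* and *Lamc3* had log2 fold changes between -0.11 and 0.57, and *Lama1* had at most 2 counts in a mouse.

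**Figure D3:**
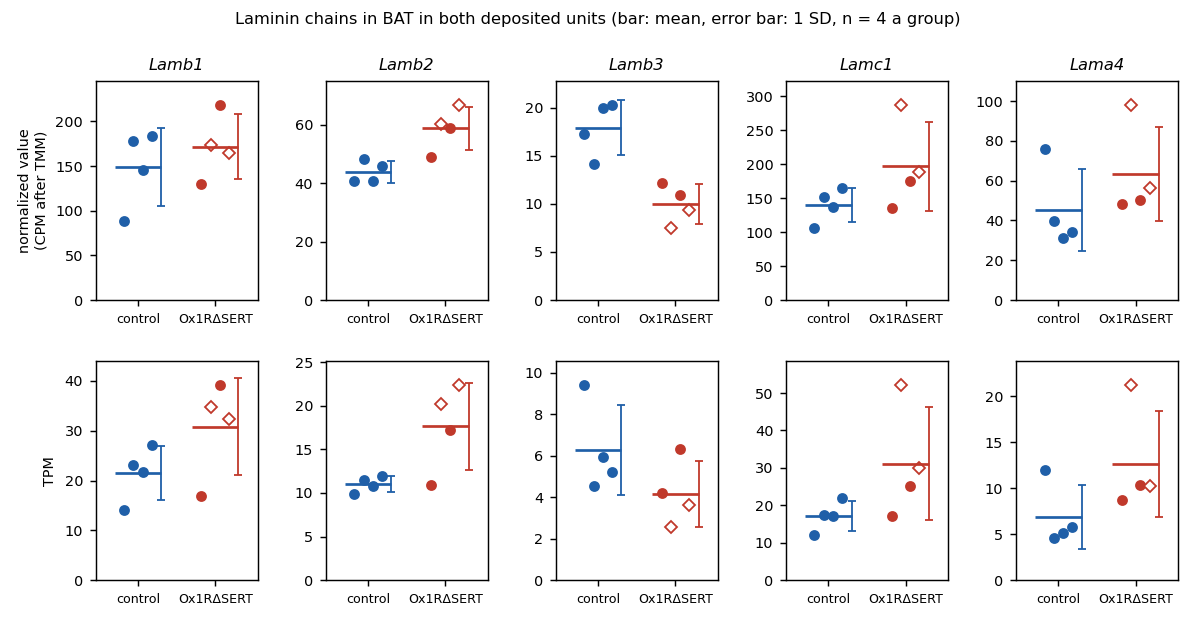
Normalized value (CPM after TMM, upper row) and TPM (lower row) of 5 laminin chains, with 1 point for each mouse, open diamonds for mice 11601 and 11708, a line at the mean and a bar of 1 SD (n = 4 in each group). *Lamb3* separates the groups in the upper row and overlaps in the lower row, and *Lamb2* overlaps in the lower row through mouse 11243.

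Among the matrix glycoproteins, all 16 had a log2 fold change above 0, as did 50.4% of all tested genes. DESeq2 called 4 of them higher, where the share over all its genes was 1.54%. The largest log2 fold changes among them were those of *Tnc*, *Fbn2* and *Fn1*. In 13 of the 16, against 20.1% of all tested genes, mice 11601 and 11708 had the 2 highest values, and *Sparcl1*, *Thbs4* and *Fbln7* did not follow this order. In bulk tissue, more cells of a type that makes these proteins and more RNA per cell cannot be told apart.

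*Tnc* (ENSMUSG00000028364, chromosome 4, 63959785 to 64047015) encodes tenascin-C, a large hexameric glycoprotein of remodelled matrix. Its normalized values were 3.27, 4.34, 3.45 and 7.38 in the control mice, against 5.96, 129, 14.5 and 128.5 in the Ox1RΔSERT mice. Mice 11601 and 11708 were far above all others, mouse 11613 was above all control mice and mouse 11243 lay within their range. For *Tnc* the log2 fold change was 3.91 with a standard error of 0.96 (unadjusted p of 0.00286 in edgeR), and it was 1.15 without mice 11601 and 11708. In DESeq2 the adjusted p of *Tnc* was 0.0117, with a range of 1.37e-05 to 0.996 over all tools and settings run.

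*Thbs1* (ENSMUSG00000040152, chromosome 2, 118111876 to 118127133) encodes thrombospondin-1, which binds latent TGF-β and is stored in platelets. In the control mice it was at 24.2, 51.1, 36.2 and 35.8, and in the Ox1RΔSERT mice at 59.1, 237, 58.1 and 249. No Ox1RΔSERT mouse fell into the control range, and this held in TPM too, where the values were 3.15 to 5.85 in control mice and 7.35 to 44.0 in Ox1RΔSERT mice. *Thbs1* differed by 2.04 on the log2 scale (standard error 0.53), and its adjusted p was 0.00642 in DESeq2 (4.75e-05 to 0.996 over all tools and settings run). Without mice 11601 and 11708 it was 0.68, with an unadjusted p of 0.0272 in edgeR.

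*Thbs2* and *Thbs3*, whose products are further members of this family, were higher by 1.94 and 1.78 on the log2 scale, with unadjusted p-values of 0.0182 and 0.0143 in edgeR. *Thbs2* was at 4.45 to 11.5 in control mice and at 6.33, 54.9, 9.52 and 38.7 in the Ox1RΔSERT mice. For *Thbs3* the control mice had 3.95 to 7.04 and the Ox1RΔSERT mice 4.59, 36.7, 7.90 and 17.1. Mouse 11243 lay within the control range of both genes and mouse 11613 within that of *Thbs2*, and without mice 11601 and 11708 the log2 fold changes were 0.16 and 0.38. DESeq2 gave *Thbs3* an adjusted p of 0.0424 (0.000474 to 0.996 over all tools and settings run). In TPM, *Thbs3* was at 1.83 to 2.16 in control mice and at 1.26, 19.0, 3.09 and 7.36 in the Ox1RΔSERT mice. Mouse 11243 was thus below the control range in that unit. The ratio of count to TPM of *Thbs3* varied 1.76-fold between mice, and on log2(TPM + 0.1) its unadjusted p was 0.106 in limma. *Thbs4* had values of 0.314 to 4.19 in control mice and 0.502 to 6.79 in Ox1RΔSERT mice, with an unadjusted p of 0.281 in edgeR. On the TPM scale *Thbs1* made up 56.0% to 77.4% of the summed thrombospondins in all 8 mice.

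*Fn1* (ENSMUSG00000026193, chromosome 1, 71585520 to 71653200) encodes fibronectin, the ligand of many integrins. The control mice had 40.9, 90.6, 46.1 and 45.7 and the Ox1RΔSERT mice 56.0, 556, 101 and 316. Control mouse 11253 lay above mouse 11243, so that the groups overlapped. For *Fn1* the log2 fold change was 2.21 with a standard error of 0.67 (unadjusted p of 0.0095 in edgeR), and 0.50 without mice 11601 and 11708. DESeq2 gave *Fn1* an adjusted p of 0.0726 (4.13e-05 to 0.996 over all tools and settings run).

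Periostin, a matricellular protein of collagen-rich tissue, is encoded by *Postn*, which was at 53.7, 116, 61.7 and 70.6 in the control mice, against 69.1, 438, 96.4 and 237 in the Ox1RΔSERT mice. Only mice 11601 and 11708 lay above the highest control mouse, 11253. The log2 fold change of *Postn* was 1.48, with an unadjusted p of 0.0261 in edgeR, and 0.14 without both mice. *Tnxb*, which encodes tenascin-X of collagen fibrils, was at 57.4 to 87.1 in control mice and 65.0, 252, 87.5 and 131 in the Ox1RΔSERT mice. Its log2 fold change was 1.00, with an unadjusted p of 0.0293 in edgeR, and 0.20 without both mice.

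Fibrillins form the core of microfibrils. *Fbn1*, the main one in adult tissue, had normalized values of 51.6, 92.0, 54.4 and 44.9 in the control mice, against 49.7, 440, 80.8 and 200.5 in the Ox1RΔSERT mice. The log2 fold change of 1.67 had an unadjusted p of 0.0253 in edgeR, and the value was 0.11 without mice 11601 and 11708. Its exons share 2442 bases with *Gm9913* on the opposite strand, and those of *Itga4* share 1124 with *Cerkl*, and the strand setting of the counting is not given in the sources used here. *Fbn2*, a fibrillin mostly of developing tissue, was near the floor, with 0.0262, 0.381, 0.0677 and 0.126 in the control mice, against 0.393, 4.14, 0.786 and 1.46 in the Ox1RΔSERT mice. Each Ox1RΔSERT mouse was above each control mouse, in TPM as well, although mouse 11243 only just, and control mice 10684 and 11560 had 3 counts or fewer. *Fbn2* had an adjusted p of 0.0109 in DESeq2 (0.000362 to 0.996 over all tools and settings run).

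*Fbln2*, whose product links fibrillin, fibronectin and laminin, was at 26.4 to 41.8 in control mice and at 28.7, 97.5, 40.0 and 84.9 in the Ox1RΔSERT mice. Its log2 fold change was 0.96, with an unadjusted p of 0.0289 in edgeR, and 0.10 without mice 11601 and 11708. *Fbln1*, *Fbln5* and *Fbln7* had log2 fold changes of 0.65, 0.54 and 0.82 and unadjusted p-values of 0.127, 0.053 and 0.0521. *Sparc*, which encodes a collagen-binding protein of the pericellular space, had the highest TPM of all members, with a median of 266 over the 8 mice. It was at 587, 779, 684 and 755 in the control mice, against 799, 1432, 755 and 1028 in the Ox1RΔSERT mice, with a log2 fold change of 0.52 and an unadjusted p of 0.0376 in edgeR, and 0.15 without mice 11601 and 11708. *Sparcl1* was at 96.8 to 143 in control mice and 103 to 135 in Ox1RΔSERT mice, and its TPM values of 23.7 to 30.1 and 30.5 to 43.9 did not overlap. *Sparc* made up 69.8% to 78.0% of the summed TPM of the 16 glycoproteins in control mice and 58.7% and 60.2% in mice 11601 and 11708.

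**Figure D4:**
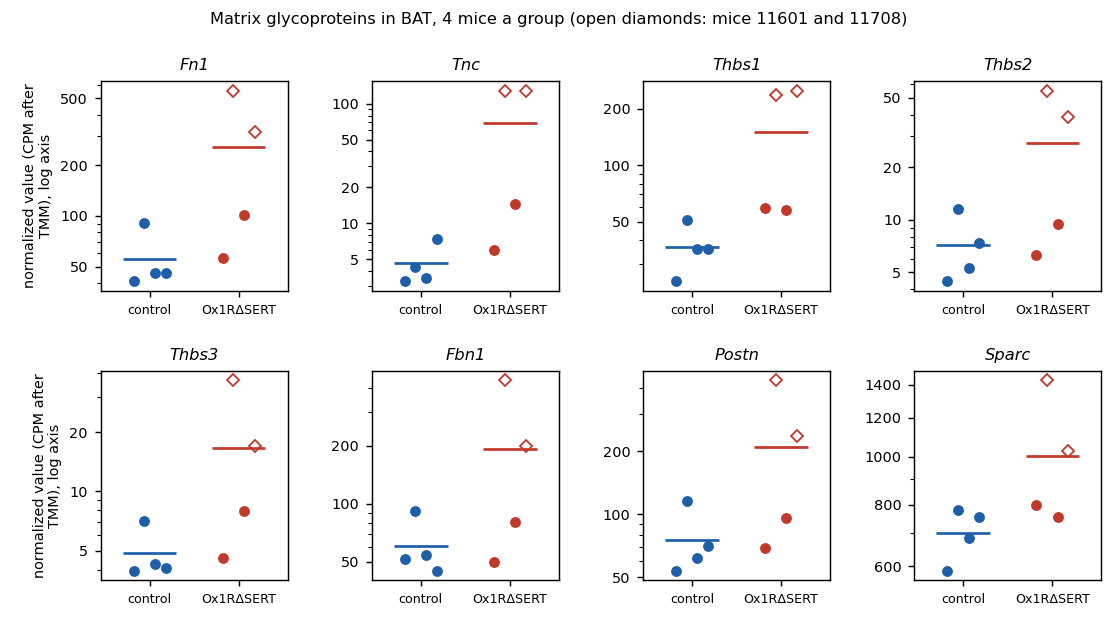
Normalized value (CPM after TMM, log axis) of 8 matrix glycoprotein genes, with 1 point for each mouse, open diamonds for mice 11601 and 11708 and a line at the mean of each group of 4. In each panel the 2 diamonds are the highest points, and *Thbs1* is the panel in which the filled points of the groups do not overlap.

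Integrin chains outside the leukocyte group were higher in 2 of 15 tested genes (13.3%) at an unadjusted p under 0.05, *Itga5* and *Itga9*, a share near the 10.2% of all tested genes. Without mice 11601 and 11708 it was 0 of 15, against 1.66% of all genes. *Itga5*, the alpha chain of the main fibronectin receptor, was at 14.9, 23.2, 17.1 and 17.3 in the control mice, against 16.8, 119, 17.7 and 72.3 in the Ox1RΔSERT mice. The difference lay in mice 11601 and 11708: the log2 fold change of 1.64 (standard error 0.60) had an unadjusted p of 0.0239 in edgeR, and it was -0.06 without them. *Itga9*, the alpha chain of a receptor for tenascin-C, was at 3.06 to 4.57 in control mice and at 4.19, 9.13, 4.45 and 6.60 in the Ox1RΔSERT mice, with a log2 fold change of 0.72 and an unadjusted p of 0.0282 in edgeR, and 0.23 without both mice. *Itgb3*, which pairs with the products of *Itgav* and *Itga2b*, had 1.20 to 3.58 in control mice and 1.59, 19.8, 2.56 and 9.30 in the Ox1RΔSERT mice. Its log2 fold change was 1.67, with an unadjusted p of 0.051 in edgeR, and -0.32 without both mice.

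*Itgb1*, the common beta chain of most integrins and the integrin with the highest TPM (median 46.0), was at 164 to 209 in control mice and 182 to 260 in Ox1RΔSERT mice, with a log2 fold change of 0.15 and an unadjusted p of 0.298 in edgeR. The laminin-binding chains *Itga3*, *Itga6*, *Itga7* and *Itgb4* had log2 fold changes of 0.03 to 0.27, and 0 of 4 had an unadjusted p under 0.05. *Itga6* (21.9 to 35.9 in control mice and 28.1 to 34.2 in Ox1RΔSERT mice) was the laminin-binding chain with the highest TPM. *Itgb5*, the vitronectin-binding chain that led the RGD-binding group in TPM, was at 37.7 to 44.3 and 40.7 to 56.3, with an unadjusted p of 0.0763. Among the collagen-binding chains, *Itga1* was at 27.3 to 34.8 in control mice and 22.9 to 32.8 in Ox1RΔSERT mice, with a log2 fold change of -0.11 that turned to 0.09 with scaling by library size alone. *Itgb1bp1*, an intracellular partner of the common beta chain, had a log2 fold change of -0.11 that turned to 0.10 in the same way.

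Leukocyte integrins were higher in 5 of 7 tested genes at an unadjusted p under 0.05, where the share over all genes was 10.2%, and 3 were called higher by DESeq2, where it was 1.54%. Without mice 11601 and 11708, 1 of the 7, *Itgal*, stayed under that threshold in edgeR. *Itgam* (ENSMUSG00000030786, chromosome 7, 128062640 to 128118491), the alpha chain of the complement receptor of macrophages and neutrophils, was at 12.1, 14.6, 8.29 and 10.9 in the control mice, against 13.7, 60.7, 14.5 and 64.9 in the Ox1RΔSERT mice. Mice 11243 and 11613 lay within the control range in normalized values. In TPM they were at 2.32 and 2.96, above the control range of 1.46 to 2.16, so that the groups did not overlap in that unit. *Itgam* had a log2 fold change of 1.75 (standard error 0.53), which was 0.30 without mice 11601 and 11708. Its adjusted p was 0.0322 in DESeq2 (0.000438 to 0.996 over all tools and settings run). *Itgam* shares 3450 exonic bases on the same strand with the annotated gene *Gm49368*, so that reads may have been divided between them.

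*Itgb2*, the common beta chain of leukocyte integrins, was at 6.90, 9.32, 4.61 and 6.37 in the control mice, against 6.81, 38.5, 8.53 and 47.4 in the Ox1RΔSERT mice, with a log2 fold change of 1.90 and an unadjusted p of 0.0137 in edgeR, and 0.18 without mice 11601 and 11708. *Itgal* (ENSMUSG00000030830, chromosome 7, 127296260 to 127335138), whose product pairs with that of *Itgb2* to bind ICAM-1, was low, at 0.602, 0.571, 0.316 and 0.441 in the control mice, against 0.830, 1.32, 1.03 and 2.30 in the Ox1RΔSERT mice. It was without overlap in normalized values and in TPM, with a log2 fold change of 1.51 (standard error 0.37) and an adjusted p of 0.0369 in DESeq2 (0.00438 to 0.996 over all tools and settings run). Without mice 11601 and 11708 it was 0.96, with an unadjusted p of 0.0233 in edgeR.

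*Itgb7*, the beta chain of gut-homing lymphocytes, was at 0.523 to 0.951 in control mice and at 0.764, 3.85, 1.59 and 4.65 in the Ox1RΔSERT mice, with an adjusted p of 0.0394 in DESeq2 (0.000177 to 0.996 over all tools and settings run). Its log2 fold change was 1.85, and 0.65 without mice 11601 and 11708. *Itga4*, the alpha chain that binds VCAM-1 and pairs with the products of *Itgb1* and *Itgb7*, was at 1.78 to 3.08 and at 2.29, 8.01, 2.49 and 5.59, with a log2 fold change of 1.03 and an unadjusted p of 0.035 in edgeR, and 0.10 without both mice. *Itgae*, which marks T cells and dendritic cells of epithelia, was at 0.925 to 1.67 in control mice and 0.888 to 1.54 in Ox1RΔSERT mice. *Itgad* ranged from 0 to 0.666 in control mice and from 0.218 to 2.49 in Ox1RΔSERT mice, with an unadjusted p of 0.0608.

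**Figure D5:**
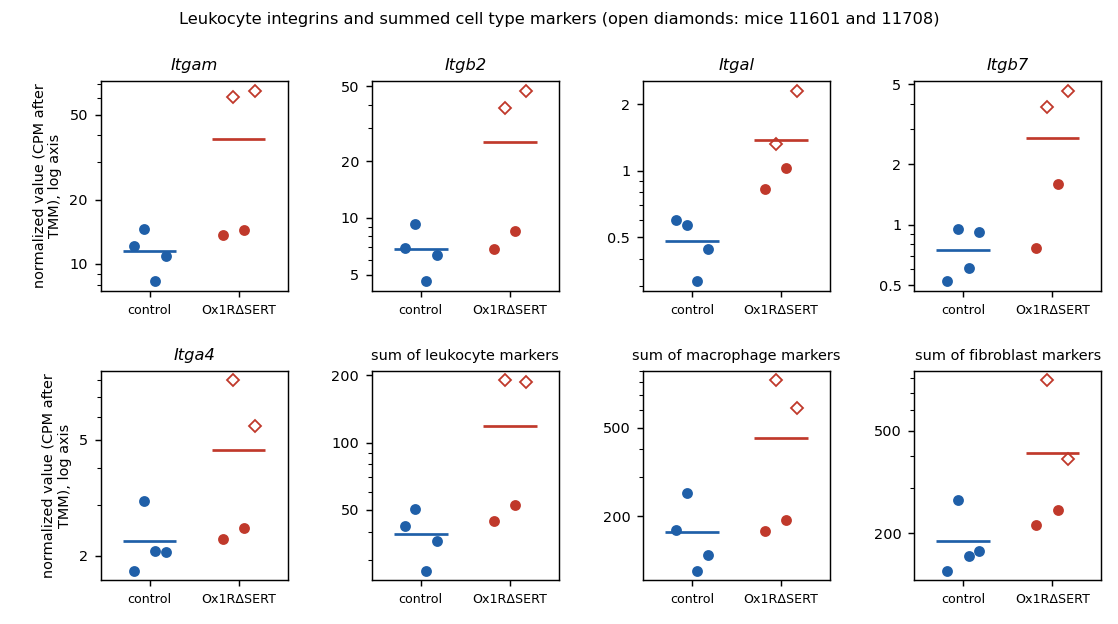
Normalized value (CPM after TMM, log axis) of 5 leukocyte integrin genes and the summed values of the leukocyte, macrophage and fibroblast markers, with 1 point for each mouse, open diamonds for mice 11601 and 11708 and a line at the mean of each group of 4. The diamonds are the highest points in each panel, and the filled points of the groups lie apart for *Itgal*.

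Markers of some other cell types moved with these genes. The 5 pan-leukocyte markers summed to 26.7 to 50.6 in control mice and to 44.6, 190, 52.5 and 187 in Ox1RΔSERT mice 11243, 11601, 11613 and 11708, and the 6 macrophage markers to 114 to 255 and to 171, 820, 192 and 612. All 5 leukocyte markers and 5 of the 6 macrophage markers were higher at an unadjusted p under 0.05, against 10.2% of all tested genes, whereas *Cd163* had a log2 fold change of -0.37. The 5 fibroblast markers, among them *Pdgfra* and *Dcn*, summed to 143 to 270 in control mice and to 214, 785, 246 and 388 in the Ox1RΔSERT mice, with all 5 higher at an unadjusted p under 0.05. Without mice 11601 and 11708, 0 of the leukocyte markers, 0 of the macrophage markers and 1 fibroblast marker, *Pi16*, had an unadjusted p under 0.05 in edgeR. The share over all genes in that fit was 2.85%. The 5 platelet markers summed to 5.92 to 7.95 in control mice and to 5.70, 32.7, 9.16 and 25.3 in the Ox1RΔSERT mice. Most of this was *Pf4*, with 30.7 in mouse 11601 and 23.3 in mouse 11708, and 3 of the 5 genes did not pass the filter. The 5 neutrophil markers did not follow the same order, with 5.19 to 24.9 in control mice and 13.1, 21.8, 26.1 and 45.1 in the Ox1RΔSERT mice. Mouse 11601 lay within the control range there. The share of counts from mitochondrially encoded genes moved as well, at 40.0% to 46.8% in control mice and 44.6%, 33.6%, 34.0% and 36.2% in the Ox1RΔSERT mice. The sums of these lists and the mitochondrial shares overlapped between the groups, and their part in the differences of matrix and integrin genes was not tested.

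Most other lists moved less or in the other direction. The summed markers of endothelial cells were 264 to 359 in control mice and 246 to 331 in Ox1RΔSERT mice, those of pericytes and smooth muscle 321 to 519 and 319 to 450, and those of Schwann cells 232 to 284 and 200 to 263. The 6 brown adipocyte markers, which check the tissue, summed to 5267 to 7357 in control mice and to 5456, 3662, 5024 and 3592 in the Ox1RΔSERT mice, and the 5 general adipocyte markers to 6930 to 8318 and 5280 to 7171. Of the 6 brown adipocyte markers, 3 were lower and 0 higher at an unadjusted p under 0.05 in edgeR, against 4.96% and 10.2% of all genes. *Elovl3* was lower without overlap. Without mice 11601 and 11708 it alone of the 6 stayed under that threshold, against 2.85% of all genes. Markers of B cells (0.158 to 0.883) and mesothelium (0.181 to 0.856) were low in all 8 mice. Those of T and NK cells were low as well, at 0.483 to 1.14 in control mice and 0.917, 1.97, 0.943 and 1.44 in the Ox1RΔSERT mice. Mice 11601 and 11708 had the highest sums of this list, of which 1 of 6 genes passed the filter. The 7 skeletal muscle markers ranged from 27.3 to 2049, with 1501 in control mouse 11253 and 2049 in mouse 11708, so that both groups held a sample with muscle transcripts. *Itgb1bp2*, a muscle gene that did not pass the filter, followed them, with 4.66 in mouse 11253, 4.11 in mouse 11708 and 0 to 0.631 in the other 6.

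Of the basement membrane partners of laminin, 7 of 12 tested genes were higher and 0 lower at an unadjusted p under 0.05, where the shares over all genes were 10.2% and 4.96%, and the median log2 fold change was 0.63. Without mice 11601 and 11708, 0 of the 12 had an unadjusted p under 0.05 in edgeR, against 2.85% of all genes, and the median was 0.18. *Col18a1*, the source of endostatin, was at 9.73 to 14.7 in control mice and 15.2, 78.2, 14.5 and 45.2 in the Ox1RΔSERT mice, with an unadjusted p of 0.0116 in edgeR. *Hspg2*, which encodes perlecan, was at 121 to 164 and at 154, 207, 178 and 195. *Nid2*, which encodes a nidogen that bridges laminin and collagen IV, was at 2.56 to 5.20 and at 5.55, 13.2, 5.90 and 7.45, without overlap. The 2 main collagen IV chains, *Col4a1* and *Col4a2*, had log2 fold changes of -0.02 and -0.03.

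Among the receptors of matrix other than integrins, 6 of 11 tested genes were higher and 0 lower at an unadjusted p under 0.05, against the same 10.2% and 4.96% of all genes, with a median of 0.54. Without both mice, *Ddr2* alone of the 11 was under that threshold, against 2.85% of all genes, and the median was 0.04. *Sdc1*, a syndecan, was at 0.971 to 3.20 in control mice and 2.12, 17.3, 3.44 and 19.8 in the Ox1RΔSERT mice. *Ddr2*, a collagen receptor of mesenchymal cells, did not overlap, with 18.7 to 28.3 against 31.2, 97.9, 30.0 and 53.0, and *Cd44*, the hyaluronan receptor, was at 11.7 to 14.1 and 12.9, 137, 14.5 and 97.3. *Dag1* and *Bcam*, laminin receptors outside the integrin family, had log2 fold changes of -0.15 and -0.05.

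The adhesion machinery inside the cell had a smaller median of 0.26, with 10 of 22 tested genes higher and 0 lower at an unadjusted p under 0.05, against 10.2% and 4.96% of all genes. Without both mice, *Tln1* and *Tns2* were the 2 of 22 under that threshold, against 2.85% of all genes, and the median was 0.22. *Tln1*, which encodes the talin that activates integrins, was at 74.1, 70.6, 64.3 and 69.3 in the control mice, against 79.9, 102, 91.3 and 110 in the Ox1RΔSERT mice, without overlap. Its log2 fold change was 0.46 (standard error 0.11), and it was 0.30 without mice 11601 and 11708. *Actn1*, an actinin, did not overlap either, with 6.30 to 9.77 against 10.5, 22.0, 12.3 and 26.2. *Tns3* was at 3.43 to 5.02 and at 4.87, 13.5, 5.28 and 12.6.

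Microfibril and elastic fibre partners were higher in 7 of 12 tested genes at that threshold, against 10.2% of all genes, with 0 lower and a median of 0.98. Without mice 11601 and 11708 it was 0 of 12, against 1.66% of all genes, and the median was 0.09. The 3 with the lowest p, *Emilin2*, *Mfap2* and *Efemp2*, had log2 fold changes of 1.62, 1.92 and 1.19 with all 8 mice and of 0.05, 0.59 and 0.21 without both. Other matricellular proteins and integrin ligands were higher in 6 of 11 tested genes, against 10.2% of all genes, with 0 lower and a median of 1.13. Without both mice, *Spp1* alone of the 11 was under that threshold, against 2.85% of all genes, and the median was 0.18. *Spp1*, which encodes osteopontin, was at 0.758, 1.43, 0.700 and 1.68 in the control mice, against 2.51, 62.0, 6.35 and 64.2 in the Ox1RΔSERT mice, without overlap. *Tgfbi* was at 7.34 to 14.0 and 13.9, 41.0, 14.9 and 57.7, and *Ccn5* at 0.131 to 0.565 and 0.459, 4.24, 0.674 and 2.24.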

How the data were processed

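BAT of 4 control and 4 Ox1RΔSERT mice was studied by mRNA sequencing of poly-A selected, stranded libraries. The authors quantified genes with Salmon 0.14.1 and deposited estimated counts per gene, not normalized, and TPM values, normalized for transcript length and library size. The processing notes name GRCm38.p6, STAR and DESeq2 1.26.0, whereas the annotation release is not given in the sources used here. Symbols came from GENCODE M21, which named 44118 of 44674 identifiers.

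Estimated counts were rounded and compared with edgeR 4.0.16 (filterByExpr, TMM, glmQLFit, glmQLFTest, two-sided, Benjamini-Hochberg adjustment over all genes, threshold 0.05) in R 4.3.3 over all 8 mice, without covariates. Total counts of 35852708 to 50063339 set the counting precision. Standard errors came from the F statistic. Members named in full were those with an unadjusted p under 0.05, without overlap or called by DESeq2, and the member with the highest median TPM in each role. In each list of related genes the 3 with the lowest p were named, and further genes of the lists were named after their values were seen. The members and lists were chosen with earlier results of these data known. Levels of different genes were compared only in TPM. The values of 1 tested member are not reported here, although it is part of the counts and medians.

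Alternatives were DESeq2 1.42.0, scaling by RLE, by the upper quartile or by library size, testing all genes or those with at least 10 counts in every mouse, limma 3.58.1 on log2(TPM + 1) and log2(TPM + 0.1), leaving out mitochondrially encoded genes, each mouse, or mice 11601 and 11708, and, added after the data had been seen, DESeq2 with each mouse left out. The fits were tested on simulated counts.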

Additional observations from a re-analysis of the deposited data

Results flagged for a closer look

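Dixon's test was applied to each group of 4 mice for each tested member, 102 groups in all, and 5 groups held a mouse far from the others, where chance gives about 1 group in 20. Control mouse 11253 was the highest in 3 of them. It had 90.6 for *Fn1*, where the other control mice had 40.9 to 46.1. For *Thbs3* it had 7.04, where the others had 3.95 to 4.29, and for *Thbs4* 4.19, where the others had 0.314 to 0.757. The same mouse had a summed skeletal muscle marker level of 1501 against 27.3 to 41.7 in the other control mice, and the part of muscle transcripts in these values was not tested. Control mouse 11563 was the lowest for *Itgb3bp*, with 1.66 against 2.22 to 2.31. Ox1RΔSERT mouse 11601 was the highest for *Lama4*, with 98.2 against 48.1 to 56.4 in the other Ox1RΔSERT mice.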

How the results depend on the processing

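No paired analysis was possible because the labels number no replicates: the numbers used here follow only the order of the samples and pair no mice. edgeR called 0 members in every setting run, including each mouse left out, and limma 0 on both TPM scales. DESeq2 called 265 genes and 8 members, and with each mouse left out 1516 genes and 20 members (without 11243), 936 and 15 (11613), 373 and 4 (10684), 247 and 8 (11253), 49 and 2 (11563), 19 and 0 (11708), 17 and 0 (11601) and 17 and 0 (11560). At an unadjusted p under 0.05, the 20 members ranged from 11 to 28 with each mouse left out (11 without 11601, 12 without 11560, 13 without 10684) and were 6 without mice 11601 and 11708. Those higher ranged from 10 to 27, were 5 without both mice and 29 with scaling by library size alone. The genes higher at that threshold moved too, with 741 of 14611 without mouse 11601, 2070 of 14843 without 11243 and 3012 of 14489 with library size alone. The 1 lower, *Lamb3*, was lost on both TPM scales (0 lower). Members without overlap ranged from 5 to 16 with each mouse left out (13 without 11243, 16 without 11253). With a mouse left out, the smaller groups separate more easily, and the share over all genes was not computed for these settings. Without both mice the medians were 0.12 and, for leukocyte integrins, 0.30, and the latter was 0.35 on log2(TPM + 1). The sign changed for the log2 fold change of *Itga1* (0.094 with library size alone, 0.23 on log2(TPM + 0.1), 0.19 on log2(TPM + 1) and 0.080 without both mice) and of *Itgb1bp1* (0.10, 0.23 and 0.21 in the same 3 scalings). Without both mice, that of *Itga5* was -0.063 and that of *Itgb1* -0.043. For *Itga6* it was between -0.030 and 0.18 with each mouse left out, and in DESeq2 -0.036 without control mouse 10684 and -0.000619 without 11560. The cause was not tested. The direction of the other members named by the rule was kept in all settings run. Members near the floor, such as *Fbn2* and *Itgal*, are limited by depth.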
